A study of Mus musculus with 10 samples.

Results

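A set of 5 genes on mouse chromosome 17, Gm4134, Lta, H2-T-ps, BC023719 and H2-T10, was followed in testes with and without MOV10, an RNA helicase of the cytoplasm. They are 5 of the 55421 genes in the count files and 5 of the 574 genes annotated between 30 and 40 Mb of that chromosome in mm10. They were selected on their RNA-seq counts, as genes higher in the Mov10-/- libraries, so their difference between genotypes is given as a description and is not tested. The question was whether their reads were present in one genotype and absent in the other, as some strain variants give, or were graded. Both patterns are described only, and the cause of either was not tested.

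RNA-seq covered 3 wild type testis libraries (replicates 1, 2 and 3) and 3 Mov10-/- libraries (replicates 2, 3 and 4), all from mice at postnatal day 21 (P21). The knockout allele lacks a block of Mov10 exons through Cre recombination in all tissues, and homozygotes came from crosses of heterozygotes. It was made in V6.5 embryonic stem cells, a hybrid line, injected into blastocysts of another hybrid background, and the study places the mutant mice on a mixed background of 129, C57BL/6 and FVB. The labels name no strain for the testes that were sequenced, and neither the H2 haplotype of each testis nor whether the wild type mice were littermates is given. Strain background and Mov10 genotype therefore cannot be told apart here. A second assay, CLIP-seq of RNA crosslinked to MOV10, has 4 libraries (replicates 1, 2, 3 and 5) from P21 testes.

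The stretch of chromosome 17 holds the mouse major histocompatibility complex, H2, a dense region whose genes differ between inbred strains in sequence and in copy number. Classical class I genes present peptides to T cells. The class Ib genes of the T region, to which H2-T10 and H2-T-ps belong, are repeated in tandem and vary in number between haplotypes. Lta encodes lymphotoxin alpha, a secreted cytokine made mainly by activated lymphocytes, which signals through TNF receptors. Gm4134 is a pseudogene outside the class Ib cluster, and BC023719 is a noncoding RNA that runs opposite to H2-T10.

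All positions are mm10, from an annotation of that build. Gm4134 (ENSMUSG00000092571), an unprocessed pseudogene, is at chr17:33861302-33864228 on the minus strand. Lta (ENSMUSG00000024402), which is protein-coding with 4 exons, is at chr17:35203165-35205351 on the minus strand. H2-T-ps (ENSMUSG00000073405), annotated as an unprocessed pseudogene, is at chr17:36109234-36111658 on the minus strand. BC023719 (ENSMUSG00000092365), annotated as antisense with 2 exons, is at chr17:36111426-36117121 on the plus strand. H2-T10 (ENSMUSG00000079491), a polymorphic pseudogene, which is a gene intact in some strains and broken in others, is at chr17:36115876-36121465 on the minus strand. Gm4134 lies 1339 kb from Lta and Lta lies 904 kb from H2-T-ps, whereas the last 3 fit into 12.2 kb.

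**Figure D1:**
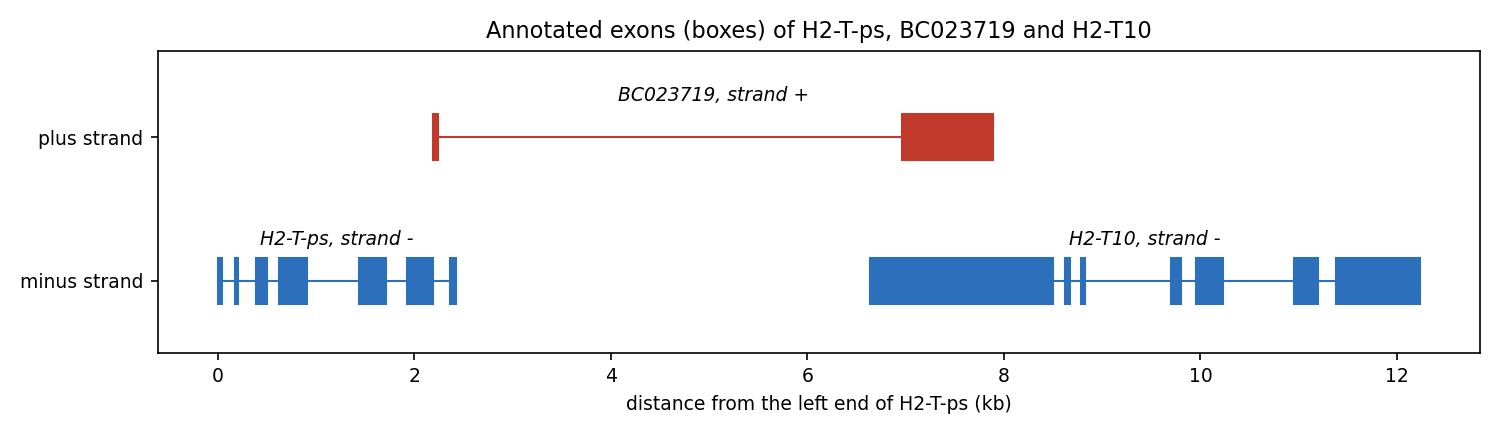
Annotated exons (boxes) and introns (lines) of H2-T-ps, BC023719 and H2-T10 by distance in kb from the left end of H2-T-ps, with the plus strand above and the minus strand below. BC023719 starts inside H2-T-ps and its long second exon lies opposite an exon of H2-T10.

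BC023719 connects the other 2. Its first exon begins within H2-T-ps, with 1 exon base opposite an exon of that gene, and 925 of its 978 exon bases (94.6%) lie opposite exons of H2-T10. The libraries were made with a stranded kit, and the strand setting of the count was not given in the sources used here. Of the 439 genes annotated wholly beneath exons of the other strand, 220 had at least 1 read in the 6 RNA-seq libraries and 24 had at least 100. In the default mode of htseq-count, a count that ignored strand would set such reads aside as ambiguous. The minus-strand gene Gm7030 also spans this place and shares 14 exon bases with H2-T-ps. It had 0 to 2 reads per library.

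Each of the 4 genes other than Lta has a close copy elsewhere on chromosome 17, and reads from identical stretches cannot be assigned to one copy. By local alignment of transcripts, H2-T-ps matched H2-T23, a class Ib gene, at 95.6% identity over 1068 columns. H2-T10 matched H2-T22, a class Ib gene whose product is known to be recognised by gamma-delta T cells, at 96.4% over 1703 columns. BC023719 matched the antisense gene A930015D03Rik at 96.4% over 871 columns, and Gm4134 matched Efhb, a protein-coding gene for an EF-hand protein, at 91.1% over 583 columns. No other transcript matched Lta.

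To show how far such reads can be told apart, 1 window of 60 bases is given for each pair, read 5′ to 3′ on the strand of the gene (mm10 transcripts), with the bases that differ between the copies in capitals. Each window is free of gaps and has the rate of non-identical columns of its whole alignment, where gaps also count. The alignment of Gm4134 has 583 columns for 563 of its bases, so gaps are part of its rate.
H2-T-ps, chr17:36111342-36111401: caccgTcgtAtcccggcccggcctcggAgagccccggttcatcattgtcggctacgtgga
H2-T23, chr17:36032338-36032397: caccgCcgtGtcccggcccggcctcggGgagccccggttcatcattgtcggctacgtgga
H2-T10, chr17:36120703-36120762: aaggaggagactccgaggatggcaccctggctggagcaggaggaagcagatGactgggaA
H2-T22, chr17:36041956-36042015: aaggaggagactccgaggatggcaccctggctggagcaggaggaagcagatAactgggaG
BC023719, chr17:36116267-36116326: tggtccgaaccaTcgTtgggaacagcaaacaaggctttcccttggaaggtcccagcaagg
A930015D03Rik, chr17:36037589-36037648: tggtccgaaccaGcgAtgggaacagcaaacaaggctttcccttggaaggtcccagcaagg
Gm4134, chr17:33864057-33864116: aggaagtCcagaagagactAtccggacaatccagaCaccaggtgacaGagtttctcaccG
Efhb, chr17:53401491-53401550: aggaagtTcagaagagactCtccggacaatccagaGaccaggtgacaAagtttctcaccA

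Cut into all windows of 50 bases, 32.9% of those of H2-T10, 29.8% of those of BC023719 and 29.4% of those of H2-T-ps occur unchanged in a transcript of another gene on the same strand. The share was 5.45% for Gm4134 and 0% for Lta. Levels of H2-T-ps, BC023719 and H2-T10 are therefore uncertain in a way that those of Lta are not.

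Reads on genes numbered 5083407 to 9230540 per RNA-seq library. Levels are in RPM, reads scaled to 1000000 per library by the TMM method of edgeR, and 1 read was worth 0.107 to 0.206 RPM. Mov10-/- replicate 3 was the shallowest, with 57.2% of its reads not aligned, against 26.5% to 35.9% in the others. Mov10 itself, on chromosome 3, had 29.2, 26.7 and 26.8 RPM in the Mov10-/- libraries and 114, 96.8 and 120 RPM in the wild type. The edgeR quasi-likelihood test over 20240 genes called it lower (log2 fold change -1.999, adjusted p = 0.00552), and it was the only gene called. With a 2-fold difference and an adjusted p of 0.05 as limits, no gene was called higher (0% of genes tested), the 5 genes included, although 1129 were higher at an unadjusted p under 0.05. DESeq2 called 51 genes higher (0.257% of those it tested), with 4 of the 5 among them and no adjusted p for H2-T-ps, and the exact test of edgeR called 70 (0.346%), all 5 among them. Because the 5 were selected on this contrast, nothing is read from these counts. By the study's methods, each library came from its own pair of testes, with 3 pairs of each genotype. The spread between libraries thus holds differences between testis pairs as well as technical ones. Whether libraries of 1 genotype came from separate litters is not given.

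BC023719 was the only one of the 5 with reads in one genotype alone. It had 72, 55 and 60 reads in Mov10-/- replicates 2, 3 and 4 and 0 reads in each wild type library. These are 8.93, 11.3 and 7.41 RPM in Mov10-/-, with a mean of 9.22 ± 1.97 RPM (SD, n = 3). All 3 knockout libraries were high and all 3 wild type libraries were empty. The wild type libraries hold 25218388 reads on genes in all, and a count of 0 over them allows up to 0.12 RPM. The level of BC023719 in Mov10-/- was 74.4 times that limit. The limit covers counting error in wild type only and not that of the knockout reads, so 74.4 is not a strict lower bound. The fitted log2 fold change of 9.14 depends on the constant that edgeR adds to zero counts and is not a bound.

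Gm4134 came close to that pattern without meeting it. It had 45, 78 and 84 reads in Mov10-/- replicates 2, 3 and 4, and 0, 2 and 2 reads in wild type replicates 1, 2 and 3. The levels were 5.58, 16.04 and 10.37 RPM, with a mean of 10.7 ± 5.23 RPM (SD, n = 3), against 0.163 ± 0.144 RPM in wild type (SD, n = 3). The genotypes did not overlap, and the lowest knockout library was 20.4 times the highest wild type library. The ratio of the summed reads was 61.8, with an exact 95% counting interval of 23.8 to 229, and the fitted log2 fold change was 5.91 with a standard error (SE) of 0.74. Among the knockout libraries Gm4134 varied the most of the 5, 2.87 times between the highest and the lowest.

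H2-T10 had reads in every library. It had 45, 27 and 34 reads in Mov10-/- and 9, 6 and 8 reads in wild type, in the order of the replicate numbers. The levels were 5.58, 5.55 and 4.20 RPM against 1.06, 0.822 and 0.859 RPM, with means of 5.11 ± 0.791 and 0.914 ± 0.128 RPM (SD, n = 3 each). The 2 genotypes formed separate narrow groups, with 1.33 times between the highest and lowest library in Mov10-/- and 1.29 times in wild type. The ratio of the summed reads was 5.50 (95% counting interval 3.48 to 9.05) and the log2 fold change was 2.46 with an SE of 0.34.

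Lta was graded as well, at low counts. It had 14, 11 and 22 reads in Mov10-/- and 4, 3 and 2 reads in wild type. The levels were 1.74, 2.26 and 2.72 RPM against 0.471, 0.411 and 0.215 RPM, with means of 2.24 ± 0.49 and 0.366 ± 0.134 RPM (SD, n = 3 each). Every knockout library lay above every wild type library, with 3.69 times between the lowest of the former and the highest of the latter. The ratio of the summed reads was 6.24 (95% counting interval 3.02 to 14.5) and the log2 fold change was 2.58 with an SE of 0.45.

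H2-T-ps had the fewest reads of the 5. It had 17, 6 and 12 reads in Mov10-/- and 4, 1 and 1 reads in wild type. The levels were 2.11, 1.23 and 1.48 RPM against 0.471, 0.137 and 0.107 RPM, with means of 1.61 ± 0.451 and 0.238 ± 0.202 RPM (SD, n = 3 each). The genotypes did not overlap, although wild type replicate 1 held 4 of the 6 wild type reads. The ratio of the summed reads was 6.96 (95% counting interval 2.899 to 20.3), and the log2 fold change of 2.69 (SE 0.59) was 3.57 without wild type replicate 1.

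**Figure D2:**
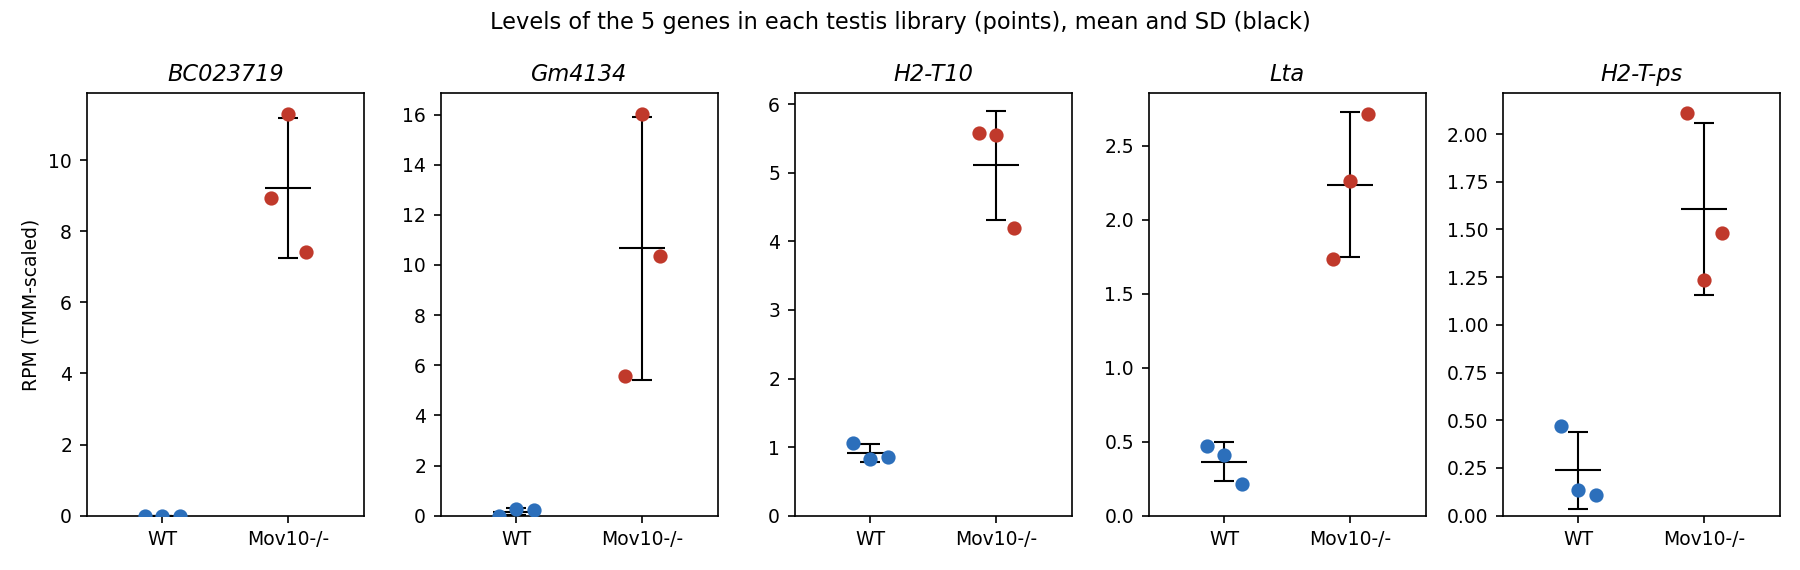
RPM, scaled by TMM, of each of the 5 genes in 3 wild type (blue) and 3 Mov10-/- (red) testis libraries, with the mean and SD in black and a separate vertical axis from 0 for each gene. No gene has a knockout library at the wild type level. BC023719 is at 0 in wild type, Gm4134 is near 0, and H2-T10, Lta and H2-T-ps are low but present.

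By the definition used for absence (at most 3 reads summed over the 3 libraries of one genotype, at least 10 in each library of the other), 1 of the 5 genes, BC023719, was present only in Mov10-/-. In all, 3 genes of the 55421 in the files had that pattern (0.00541%), and 23 had the reverse. The 3 counts the definition allows were exceeded by 1 read in Gm4134, which met it when up to 6 reads were allowed or when wild type replicate 2 or 3 was left out. H2-T10, Lta and H2-T-ps did not meet it under any of these choices. For H2-T-ps this says little about wild type. With 6 reads in Mov10-/- replicate 3, the shallowest library, it missed the 10 reads required there, while its 6 wild type reads were within the wider limit. Between them, the ratios of 5.50 to 6.96 lay within each other's counting intervals.

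Per kilobase of exon the wild type means were 0.289 RPM for Gm4134, 0.267 for H2-T10, 0.264 for Lta, 0.224 for H2-T-ps and 0 for BC023719. In Mov10-/- the means per kilobase were 18.9 for Gm4134, 9.42 for BC023719, 1.62 for Lta, 1.51 for H2-T-ps and 1.49 for H2-T10. The length is that of all annotated exons of a gene together, 3419 bases for H2-T10, whose aligned transcripts have 1699 and 1481. Its level per kilobase depends on this choice. On that length-scaled level, H2-T10, Lta and H2-T-ps lay close together in both genotypes, and BC023719 and Gm4134 had the highest levels of the 5 in Mov10-/-.

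Within the knockout, the read counts of most of the 5 varied about as much as counting allows. The chi-square of the 3 knockout counts over its degrees of freedom, where 1 is counting noise alone, was 0.832 for H2-T-ps, 0.867 for Lta, 0.933 for H2-T10 and 2.60 for BC023719. It was 17.02 for Gm4134. Among the 5123 tested genes with a similar number of knockout reads the median was 2.04 and the interquartile range ran from 0.801 to 4.60, so that Gm4134 lay above that range. In wild type the values were 0.148 to 1.45 for the 4 genes with reads.

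All 5 follow the genotype by the way they were selected, so that correlations between them over both genotypes describe that step. Over the 6 libraries, Pearson's r of log2 RPM ran from 0.838 for Gm4134 and H2-T-ps to 0.994 for BC023719 and H2-T10, which share a stretch of DNA. In the 3 knockout libraries BC023719 had 1.6, 2.04 and 1.76 times as many reads as H2-T10. In wild type it had none, while H2-T10 kept 6 to 9 reads per library.

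All 5 genes had every Mov10-/- library above every wild type library, which follows from how they were selected. Over all tested genes, 11.9% had that pattern and 14.1% the reverse. Of the 217 other tested genes between 30 and 40 Mb, 33 (15.2%) were higher and 19 (8.76%) were lower in every Mov10-/- library. The stretch was thus not uniformly higher, and its median log2 fold change without the 5 genes was 0.03, as for all tested genes (0.03).

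**Figure D3:**
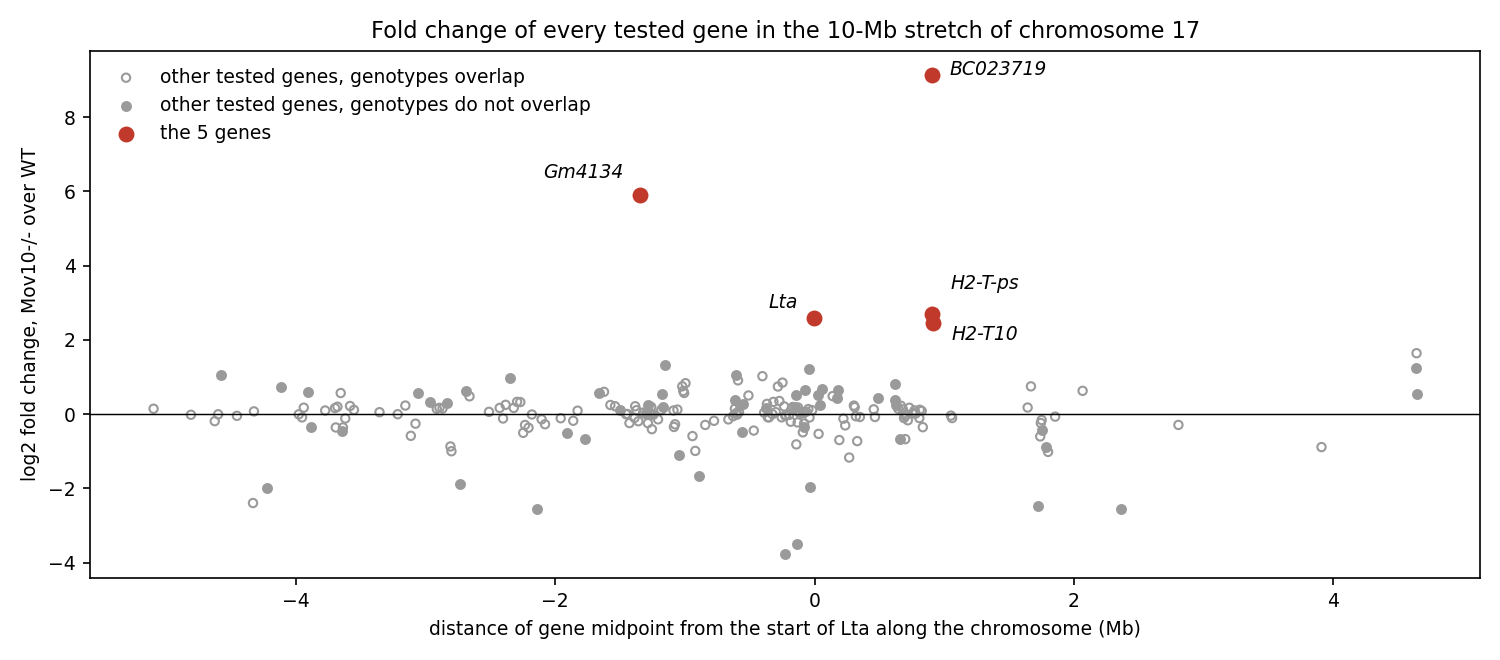
Log2 fold change of Mov10-/- over wild type (vertical axis) for every tested gene between 30 and 40 Mb of chromosome 17, by distance in Mb of the gene's midpoint from the start of Lta. Filled grey points are genes whose genotypes do not overlap and open points are genes that do. The 5 genes, in red, are the only tested genes there above a log2 fold change of 2, and the next gene whose genotypes do not overlap is at 1.33.

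The 5 genes had the highest log2 fold changes among the tested genes of the stretch, 2.46 to 9.14, after being selected on this contrast. Next was the ribosomal RNA gene CT010467.1, named here after its values were seen, with 1.64 (SE 0.61, adjusted p = 0.23) and 299, 470 and 257 reads in Mov10-/- against 111, 50 and 301 in wild type, which overlap. The next tested gene without overlap, Col11a2, a collagen of cartilage, had 1.33 (SE 0.23, adjusted p = 0.15). It had 214, 158 and 245 reads in Mov10-/- and 78, 90 and 130 in wild type. The lincRNA Gm26917 (1.25), the small nucleolar RNA Gm23442 (1.21), the receptor gene Ager (1.06) and the noncoding RNA 1700097N02Rik (1.05) followed. In the other direction, Hspa1l, a heat shock protein gene of spermatids, had the largest difference, with a log2 fold change of -3.76 (adjusted p = 0.15), with 742 reads in wild type replicate 2 against 137 and 79 in replicates 1 and 3. Ly6g6c (-3.49), Olfr112 (-2.56), 4921501E09Rik (-2.55) and 1700031A10Rik (-2.48) were next, and none of these 10 passed the test.

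In the same stretch, 2 more genes had almost no wild type reads but were below the expression filter. They were picked out after their values were seen. The class Ib gene H2-M10.2, at chr17:36284227-36286490, had 7, 13 and 17 reads in Mov10-/- and 2, 0 and 0 in wild type. The pseudogene Gm18733, at chr17:35278176-35279414, had 5, 11 and 8 reads in Mov10-/- and 0 in each wild type library. Both had a knockout library under 10 reads, so neither met the definition of presence.

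Genes beside the 5 had smaller differences, but only the 5 were selected on this contrast, so nothing is read from that. Within 100 kb, up to the 6 nearest tested genes of each, 16 genes in all had log2 fold changes of -1.96 to 0.53 with a median of 0.04, and none was called (smallest adjusted p = 0.156). Around Gm4134, the kinesin gene Kifc1 had 0.04, the respiratory chain gene Ndufa7 had 0.11 and the ribosomal protein gene Rps28 had 0.21. The others there, Cd320, Kank3 and BC051226, had -0.19, -0.10 and 0.03. Kifc1, only 11.4 kb away, had 305, 230 and 404 reads in Mov10-/- and 366, 326 and 405 in wild type.

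Around Lta, 2 neighbours were higher and 1 was lower in every knockout library, beside 11.9% and 14.1% of all tested genes. Nfkbil1, which encodes a protein similar to inhibitors of NF-kappa-B, had a log2 fold change of 0.53 (SE 0.19) and Ddx39b, an RNA helicase gene, had 0.25 (SE 0.13), with adjusted p of 0.222 and 0.349. Aif1, which marks macrophages, had -1.96 (SE 0.54, adjusted p = 0.156), with 69, 76 and 75 reads in Mov10-/- and 257, 584 and 172 in wild type. It was not typical of macrophage markers. Of 15 tested it was the 1 lower in every knockout library, 0 were higher, and their median log2 fold change was 0.27. Lst1, Gm17705 and Atp6v1g2, at 0.11, -0.09 and -0.53, had overlapping genotypes.

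The tested neighbours of H2-T-ps, BC023719 and H2-T10 were H2-T22, H2-T23, H2-T24 and A930015D03Rik, 66.5 to 95.3 kb away, and 3 of these are the copies described above. Their log2 fold changes were -0.35, 0.09, -0.11 and 0.12, and the genotypes of all 4 overlapped (adjusted p = 0.773 or higher). H2-T10, H2-T-ps and BC023719 were selected on this contrast and their copies were not, so nothing is read from setting them side by side. The genotypes were separate in those 3 genes and overlapped in their copies of the same cluster. For H2-T22 and H2-T23 that spread was wide, with SEs of 0.57 and 0.55. Mov10-/- replicate 3 had 16 reads of H2-T22 and 14 of H2-T23, and the other knockout libraries had 85 to 115. Wild type replicates 1, 2 and 3 had 153, 43 and 114 reads of H2-T22 and 115, 49 and 76 of H2-T23.

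A930015D03Rik, the copy of BC023719, had similar counts in both genotypes. It had 36, 30 and 34 reads in Mov10-/- and 37, 36 and 40 in wild type, and its log2 fold change had an SE of 0.30. BC023719 held 63.8% to 66.7% of the reads of the pair in Mov10-/- libraries and 0% in wild type. The sum of the pair was 14.2 ± 3.01 RPM in Mov10-/- and 4.53 ± 0.35 RPM in wild type (SD, n = 3 each), and so did not overlap either.

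H2-T10 held 28.1%, 62.8% and 28.6% of the reads that it and H2-T22 had together in Mov10-/- replicates 2, 3 and 4, and 5.56% to 12.2% in wild type. The share was highest in replicate 3, where H2-T22 had 16 reads. The sum of both genes overlapped, at 14.5 ± 5.51 RPM in Mov10-/- and 12.96 ± 6.19 RPM in wild type (SD, n = 3 each). H2-T-ps held 10.17% to 30% of its pair with H2-T23 in Mov10-/- and 1.30% to 3.36% in wild type, and that sum overlapped too, at 11.6 ± 6.49 and 9.71 ± 3.79 RPM. Whether reads were exchanged within these 2 pairs was not tested.

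Gm4134 held 11.6% to 19.6% of its pair with Efhb in Mov10-/- and 0% to 0.275% in wild type. Efhb itself was lower in every knockout library, with 343, 319 and 519 reads against 682, 915 and 726, and a log2 fold change of -0.72 (SE 0.23, adjusted p = 0.189). Wild type testes thus had more Efhb reads and almost none on Gm4134. The part that Efhb reads might have in the Gm4134 counts was not tested.

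**Figure D4:**
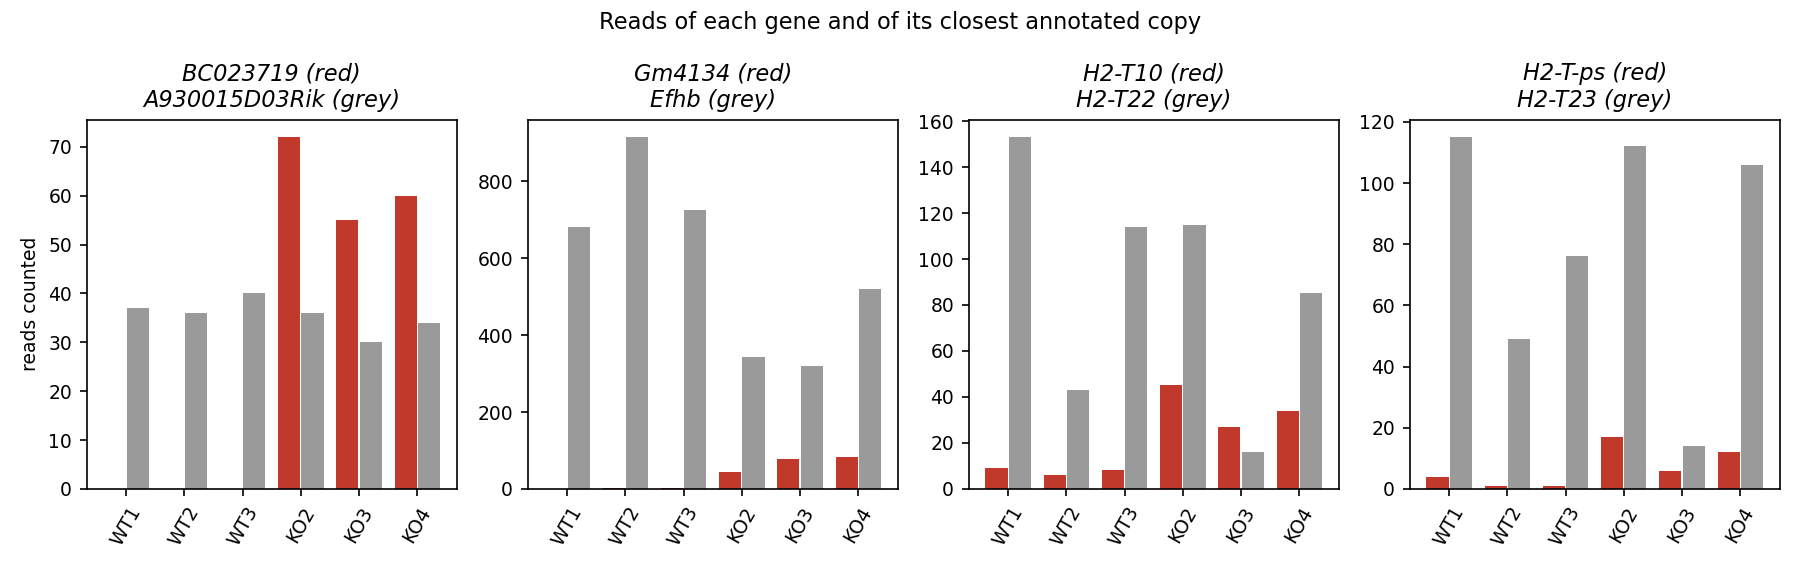
Reads counted in each of 6 testis libraries for BC023719, Gm4134, H2-T10 and H2-T-ps (red) and for the closest annotated copy of each (grey), on separate axes from 0. The red bars are higher in the 3 knockout libraries, while the grey bars of A930015D03Rik stay between 30 and 40 reads.

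The other 11 tested class Ib genes, not selected on this contrast as H2-T10 and H2-T-ps were, had smaller differences that went both ways. Of 33 genes listed for the H2-T, H2-Q and H2-M regions, 26 are in the files and 13 were tested, 2 of them H2-T10 and H2-T-ps. The other 11 had a median log2 fold change of -0.12, beside 0.03 for all tested genes, and none was called. H2-Q4 was higher in every knockout library (0.64, adjusted p = 0.259) and H2-M5 lower (-0.88, adjusted p = 0.38). Over all tested genes, 11.9% were higher and 14.1% lower in that way. Reads over the whole list summed to 51.0 to 103 RPM in Mov10-/- and 60.5 to 98.1 RPM in wild type, with 4 of its genes at 0 in all 6 libraries.

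The classical class I genes and those that load peptides on them had small log2 fold changes. None of the 17 was called. In every Mov10-/- library 5 were higher and 0 lower, with a median log2 fold change of 0.25. Canx and Calr, chaperones of the endoplasmic reticulum with the most reads of the list, had 0.06 and 0.18. H2-D1, which encodes a classical class I heavy chain, had the largest of the 5, with 0.68 (SE 0.14, adjusted p = 0.15), ahead of the light chain gene B2m (0.38), the immunoproteasome gene Psmb10 (0.35) and the loading factor gene Tapbp (0.25).

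Class II genes, which present peptides from outside the cell, had a negative median log2 fold change. None of the 8 tested of 11 was called, and the median was -0.55. In every knockout library 0 were higher and 2 lower, beside 11.9% and 14.1% of all tested genes. The 2 were H2-Eb1, with -1.66 (SE 0.55, adjusted p = 0.194), and H2-DMb1, with -1.09 (SE 0.43, adjusted p = 0.249). Cd74 and H2-Ab1, with the most reads, had -0.51 and -0.59, and Mov10-/- replicate 3 was again low, with 40 reads of each against 105 to 234 in the other knockout libraries.

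Lta belongs to the lymphotoxin and TNF ligands, and Ltb and Tnf lie next to it on the chromosome. Ltb, the membrane partner of lymphotoxin alpha, had 15, 13 and 7 reads in Mov10-/- and 6, 7 and 9 in wild type, and overlapped. Tnf had 1, 0 and 2 against 1, 1 and 3 reads. Both were below the filter, and Tnfsf14 was at 0 in all 6 libraries, so that Lta was the 1 ligand of 4 tested. Lta passed the filter through its Mov10-/- libraries alone (1.74 to 2.72 RPM, against 0.215 to 0.471 RPM in wild type), so nothing is read from its being tested.

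None of the tested receptor genes and genes downstream of Lta was called. Of 4 receptor genes, Tnfrsf14 was higher in every knockout library, with 1.46 (SE 0.42, adjusted p = 0.162), while Tnfrsf1a and Ltbr, with the most reads, had 0.08 and -0.04. Of 16 tested signal transducers, 5 were higher in every knockout library, beside 11.9% of all tested genes, and their median was 0.20. The largest 4 of the 5 were Tradd (0.51), Traf3 (0.48), Relb (0.46) and Rela (0.17), and Birc2 and Chuk, with the most reads, had -0.09 and 0.15. Of 13 target genes listed, 6 were tested, and Ccl19 and Ccl21a were at 0 in all 6 libraries. Cxcl13, Madcam1 and Glycam1 had 0 to 2 reads per library. Among the 6 tested, 1 was higher in every knockout library, Nfkbia (0.31), and the median was 0.18. Vcam1 and Cxcl12, with the most reads of these, had -0.15 and 0.33.

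In whole testis, a lower level can mean fewer cells of a type or less RNA per cell, and these cannot be told apart. Lymphocytes are the usual source of Lta, and the summed levels of both lists of their markers overlapped between genotypes. The 25 T and NK cell markers summed to 94.6 to 104 RPM in Mov10-/- and 96.1 to 108 RPM in wild type. Among the 7 tested, 1 was higher and 2 were lower in every knockout library, beside 11.9% and 14.1% of all tested genes. Tcf7, the most abundant T and NK cell marker, made up 61.5 to 67.2 RPM in Mov10-/- and 44.6 to 59.2 RPM in wild type. Without it, a split made after the values were seen, the other 24 summed to 31.5 to 36.4 RPM in Mov10-/- and 37.1 to 59.3 RPM in wild type, lower in every knockout library. The part of this in the difference of Lta was not tested. The 11 B cell markers summed to 27.4 to 36.0 RPM in Mov10-/- and 22.9 to 57.9 RPM in wild type. None of either list was at 0 in all 6 libraries, but several defining ones were near it, such as Cd5 with 0 or 1 read per library and Cd8a with 0 to 4. Macrophage markers summed to 576 to 751 RPM in Mov10-/- and 446 to 708 RPM in wild type.

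Of the testis cell types, spermatids and Sertoli cells had marker sums that did not overlap between genotypes. The 26 spermatid markers summed to 300.1 to 699 RPM in Mov10-/- and 710 to 2243 RPM in wild type, highest in wild type replicate 2, with 16 of 25 tested lower in every knockout library, 0 higher and a median log2 fold change of -2.20, which was -1.49 without wild type replicate 2 and -2.97 without Mov10-/- replicate 3. The 14 Sertoli cell markers summed to 1338 to 1547 RPM in Mov10-/- and 1115 to 1283 RPM in wild type, with 5 of 13 tested higher in every knockout library and 0 lower (median 0.31). No marker of either list was at 0 in all 6 libraries, and none was called. The part of these sums in the difference of the 5 genes was not tested. Without wild type replicate 2, the log2 fold changes of the 5 remained between 2.39 and 9.16. Spermatocyte, spermatogonia and Leydig cell markers had medians of 0.08, 0.24 and 0.23. In every knockout library 2 of 19, 2 of 14 and 1 of 9 tested were higher and 0 lower. Beside the counts of each cell type, 11.9% of all tested genes were higher and 14.1% lower.

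The genes whose levels followed the 5 most closely lay on other chromosomes. By Pearson's r over the 6 libraries with the mean of the 5 scaled log2 RPM profiles, these were Gm10406 on chromosome 14 (r = 1.00), Mecr on chromosome 4 (0.996), Sytl1 on chromosome 4 (0.991), Gm46565 on chromosome 16 (0.989) and Gm10020 on chromosome 15 (0.989). With 2 groups of 3 libraries, r mostly reflects the step between genotypes, and 201 other tested genes were above 0.9. Gm10406 had 25, 17 and 26 reads in Mov10-/- and 2, 1 and 1 in wild type (log2 fold change 4.22, SE 0.44, adjusted p = 0.0587). Mecr had a log2 fold change of 0.15 only.

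CLIP-seq could not say whether MOV10 bound these RNAs. All 5 genes had 0 reads in each of the 4 CLIP-seq libraries, and so did their 4 copies. Those libraries held 3404 to 4934 reads on genes, so that a count of 0 allows up to 608 to 881 RPM, far above the 0 to 1.06 RPM of these genes in wild type RNA-seq. At their share of wild type RNA-seq reads, 0.00778 reads of H2-T10 and fewer of each of the others would be found in 8526 CLIP-seq reads, the mean of replicates 1, 2 and 3 plus replicate 5. Replicates 1, 2 and 3 of CLIP-seq differed among themselves by less than sampling noise (chi-square over degrees of freedom 0.219 to 0.237, against 1.63 to 1.93 for each with replicate 5) and were counted as 1 sample.

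RefSeq promoters were at hand for 2 of the 5 genes, Lta and H2-T-ps, and are given for both. The 250 bases before the start are read 5′ to 3′ on the minus strand of the gene (GRCm38.p6, the assembly of mm10). A search on both strands covered TATAAA and CCAAT, which do not overlap, in capitals where found.
Lta, chr17:35205352-35205601: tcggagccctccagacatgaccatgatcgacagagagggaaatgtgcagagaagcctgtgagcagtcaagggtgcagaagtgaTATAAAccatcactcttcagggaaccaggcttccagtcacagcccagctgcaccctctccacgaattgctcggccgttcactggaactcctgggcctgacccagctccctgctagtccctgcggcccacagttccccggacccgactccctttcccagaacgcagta
H2-T-ps, chr17:36111677-36111926: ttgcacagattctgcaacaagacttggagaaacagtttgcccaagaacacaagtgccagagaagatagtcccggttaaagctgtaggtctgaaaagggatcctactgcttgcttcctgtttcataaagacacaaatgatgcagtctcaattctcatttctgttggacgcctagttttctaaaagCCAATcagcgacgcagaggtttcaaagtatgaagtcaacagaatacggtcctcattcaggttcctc
Lta has TATAAA with its first base 167 bases before the start and no CCAAT, and H2-T-ps has CCAAT 66 bases before the start and no TATAAA. Of all 32851 RefSeq promoters of that length, 12.4% hold TATAAA and 33.9% hold CCAAT, and the 2 sequences share neither.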

How the data were processed

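RNA-seq (3 wild type and 3 Mov10-/- libraries) and MOV10 CLIP-seq (4 libraries) of P21 testes were used, grouped by their labels. The authors deposited unnormalized read counts per gene. Their RNA-seq methods name STAR (mm10), htseq-count with Ensembl v99, and edgeR without the test. The strand setting was not given in the sources used here, and the strain was given for the mutant mice only. Depth was 5083407 to 9230540 reads on genes in RNA-seq and 3404 to 4934 in CLIP-seq, and intervals cover counting error only.

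The 5 genes and all gene lists were chosen with earlier results of these data known. Names, biotypes and positions came from GENCODE M21 (mm10), which is not the version the authors name and which matched 55154 of 55421 genes. A gene had to pass 1 RPM in 3 or more of the 6 libraries to be tested (20240 did), and the fit used edgeR 4.0.16 (R 4.3.3; TMM, quasi-likelihood, Benjamini-Hochberg). The 5 genes passed this filter through their Mov10-/- libraries. The SE is the log2 fold change over the square root of F. The script was tested on simulated data. Alternatives were DESeq2 1.42.0, the exact test of edgeR, other scalings, no filter, a block on the replicate number, each library left out over the same genes, a wider window and other limits for absence. Counting intervals of ratios are exact (conditional binomial), and 0 reads were taken to allow 3. Transcripts were aligned with BLAST+ 2.17.0 and exons intersected with bedtools 2.31.1. Other genes were named by rule: tested neighbours within 100 kb, genes of the lists without overlap between genotypes (up to 4) or with the most reads (2), the largest differences without overlap in the stretch (5 per direction), the 5 most similar profiles and the closest copies. Protein sequences were not used here.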

Additional observations from a re-analysis of the deposited data

How the results depend on the processing

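The number of genes called depended on the test more than on anything else, while the 5 genes kept their direction in every fit below. The quasi-likelihood test called 0 genes higher and 1 lower. It called 3 and 3 with library totals only and 5 and 5 with no filter on low counts, against 70 and 1031 by the exact test of edgeR and 51 and 988 by DESeq2. Leaving out 1 library at a time gave 0 higher and 0 to 2 lower. With a block on the replicate number it called 36 higher and 148 lower. Replicate numbers 2 and 3 are the only ones the genotypes share, and libraries with the same number deviated in opposite directions (r = -0.463 and -0.344), so that the numbers were not taken to pair the samples. The cause of these differences was not tested.

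The log2 fold change of H2-T-ps was 3.58 with the block on the replicate number and 2.32 to 3.57 with 1 library left out. That of BC023719 was 8.69 in DESeq2 and 9.08 to 9.27 with 1 library left out. The ranges were 5.33 to 6.37 for Gm4134, 2.29 to 2.79 for Lta and 2.38 to 2.58 for H2-T10. Genes present only in Mov10-/- numbered 3, or 7 with up to 6 reads allowed, 1 with 0 reads allowed and 3 to 13 with 1 library left out. Genes present only in wild type numbered 23, or 79, 2 and 23 to 156. Between 25 and 45 Mb, 67 genes were higher and 37 lower in every Mov10-/- library, where 38 and 19 were between 30 and 40 Mb. With no filter 34 were lower there, and with 1 library left out, which leaves fewer libraries to overlap, 41 to 61 were higher and 23 to 39 lower. The median of the lymphotoxin and TNF ligands was 0.98 with no filter, and that of T and NK cell markers was -0.22 with no filter and -0.22 to 0.059 with 1 library left out. No count of absent or overlapping genes was made with the block, since these come from no fit. Scalings moved the median of all tested genes by less than 0.1 on the log2 scale.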
